A study of Rattus norvegicus with 18 samples.

Results

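The genes described here make cholesterol, sense it inside the cell or move it. They are 30 rat genes named in a fixed list, and 28 of them have a feature of their own on the array, out of 14499 genes that the platform's gene table names by a single symbol. A gene with several features was read by its brightest feature on average, and Insig1 was read by both of its features, so the 28 genes correspond to 29 of 28328 features. By role, 7 of 8 genes of the mevalonate steps, 11 of 11 genes of the squalene and sterol steps, 4 of 5 sensing genes and 6 of 6 handling genes were measured, while Hmgcs1 and Srebf1 were not analysed here. The list picks genes by name and sets no threshold on their values, but it was chosen with earlier results of these data known.

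The cells were rat inner medullary collecting duct cells in primary culture, taken from the part of the kidney where urine is concentrated and where the surrounding fluid is strongly hypertonic. There were 6 groups of 3 arrays each. Cells were grown at 300 mosmol/kg (labelled 300, here the 300 culture) or at 600 mosmol/kg (600, the 600 culture). Cells of the 300 culture were exposed to 600 mosmol/kg for 24 h without the drug (600_24, the 600 challenge) or with 5 µM cyclosporin A (600_24_CSA), and cells of the 600 culture were exposed to 900 mosmol/kg for 24 h without it (900_24, the 900 challenge) or with it (900_24_CSA). Cyclosporin A is an immunosuppressant that blocks the phosphatase calcineurin after binding cyclophilins, and no group received it without an osmotic challenge. The labels do not give the age, sex or strain of the rats, the time the cells had spent at their culture osmolality, or a vehicle for the drug. Nor do they say whether arrays of the same group are separate animals or cultures, so the replicate spread behind each p-value may be technical. No culture was moved without a rise in osmolality, so the rise and the handling or added time that came with it cannot be told apart.

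Cholesterol is made in the endoplasmic reticulum from acetyl-CoA, first through mevalonate and isoprenoid diphosphates, then through squalene and a series of sterols. When sterol in that membrane runs low, Scap escorts the membrane-bound transcription factor encoded by Srebf2 to the Golgi, where proteases release it, and it then raises transcription of genes along the whole pathway. When sterol is plentiful, the Insig proteins hold Scap back. Insig1 is itself a target of the factor, and its transcript is often used as a readout of that activity. Handling genes work on the other side of the balance: Npc1 exports cholesterol from lysosomes, Soat1 esterifies it for storage, and Abca1 and Abcg1 pump it out of the cell, the last pair under control of liver X receptors that respond to oxysterols.

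The deposited values are on a log scale, and no source used here names its base. They ran from 0 to 9.504 with array medians between 3.564 and 3.649, and a difference of 1 unit means 2-fold under base 2 or 2.72-fold under base e. A level belongs to its own feature and is not comparable between genes. Of the 28 genes, Stard4 had group means under the arrays' median lower quartile of 2.605, in 2 of 6 groups. Aqp2, the water channel that defines the principal cells of the collecting duct, averaged 1.61 ± 0.12 (SD, n = 3) in the 300 culture, which is under that quartile, against 6.50 ± 0.30 (SD, n = 3) in the 600 culture. Of 16 listed principal cell markers 10 were higher and 2 lower in the 600 culture, against 8.33% and 8.84% of all features. Other members of that list differed less, with Epcam at 7.97 in the 300 culture and 8.14 in the 600 culture, and Krt8 at 8.13 and 7.84. Markers of macrophages and leukocytes were present: the mean log level over a list of 16 ran from 5.76 to 5.84 on the arrays of the 300 culture, 4.24 to 4.36 at the 600 challenge, 4.31 to 4.44 in the 600 culture and 3.24 to 3.27 at the 900 challenge. In such bulk RNA, fewer cells of a type and less RNA per cell cannot be told apart.

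Genes of both segments of cholesterol synthesis, and the sensor Insig1, were higher with cyclosporin A at both challenges. The question was what the drug changed in challenged cells, so each drug group was compared with the same challenge without the drug. At the 600 challenge 7 of 28 genes were higher with the drug and 0 were lower: Fdps, Fdft1, Sqle, Cyp51, Msmo1, Sc5d and Insig1. Over all features, 0.409% changed in that comparison (0.229% higher). At the 900 challenge 10 of 28 were higher and 0 lower, against 0.505% of all features (0.357% higher): Acat2, Idi1, Fdps, Fdft1, Lss, Cyp51, Msmo1, Nsdhl, Sc5d and Insig1. Here and throughout, "higher", "rose", "lower" and "fell" are used of a gene whose difference passed an adjusted p of 0.05 (limma, Benjamini-Hochberg over all 28328 features).

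Averaged over the 2 challenges, the drug effect was positive and past the threshold for 12 of 28 genes, against 1.14% of all features (0.755% higher). These were the 10 genes of the 900 challenge with Sqle and Srebf2. Their mean effects ran from 0.17 to 0.41 log units, that is 1.12-fold to 1.33-fold under base 2 and 1.18-fold to 1.51-fold under base e. By sign alone, all 7 measured mevalonate genes, all 11 sterol genes and all 4 sensing genes were above their no-drug level at both challenges, while 1 of 6 handling genes (Soat1) was. In all, 23 of 28 genes (82.1%) were positive at both challenges, against 26.6% of all features. As the list was chosen with earlier results of these data known, these shares describe the genes and are not an independent test. The median difference over the 28 genes was 0.17 log units at the 600 challenge and 0.22 at the 900 challenge, beside 0.00 and -0.00 over all features. The drug effects at the 2 challenges use separate arrays and share no control.

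Of the 15295 features with 1 symbol, 0.628% changed at the 600 challenge, 0.785% at the 900 challenge and 1.68% in the mean effect. The calls rest on the spread estimated over all 18 arrays. In fits of only the 2 groups compared, 0 of 28 genes and 0 of 28328 features passed at either challenge. At an unadjusted p under 0.05 those fits held 14 genes at the 600 challenge (13 of them higher; 7.66% of all features) and 14 at the 900 challenge (all higher; 8.63%), and the genes' lowest adjusted p was 0.283 and 0.245. The mean effect, fitted on the 4 challenge groups alone, passed for 10 genes, leaving out Nsdhl and Srebf2. With single arrays left out the counts ranged from 2 to 7 at the 600 challenge, from 6 to 9 at the 900 challenge and from 12 to 13 for the mean effect. The lowest count at the 600 challenge came without replicate 1 of its drug group. It was 3 without replicate 3 of that group or replicate 2 of the 600 challenge, and 4 without replicate 3 of the 600 challenge. At the 900 challenge the count was 6 without replicate 3 of the 900 challenge or replicate 1 or 2 of its drug group.

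Of 16 markers of collecting duct principal cells, all were below their no-drug level at the 600 challenge and 15 at the 900 challenge by sign, beside 13871 and 14364 of the 28328 features. Of these markers 2 and 0 passed the threshold, against 0.409% and 0.505% of all features. The list's mean log level was 4.42 to 4.42 at the 600 challenge and 4.19 to 4.26 with the drug, and 6.02 to 6.05 and 5.87 to 5.94 at the 900 challenge. Of the macrophage and leukocyte markers 0 of 16 changed at the 600 challenge and 1 at the 900 challenge. At the 600 challenge 5 of them had an unadjusted p under 0.05, beside 2406 of the 28328 features. Among 14 fibroblast and smooth muscle markers 1 rose with the drug at the 600 challenge, and 1 rose and 3 fell at the 900 challenge. Of all features 0.229% rose and 0.180% fell with the drug at the 600 challenge, and 0.357% rose and 0.148% fell at the 900 challenge. The part of these cells in the drug effect on the cholesterol genes was not tested.

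**Figure D1:**
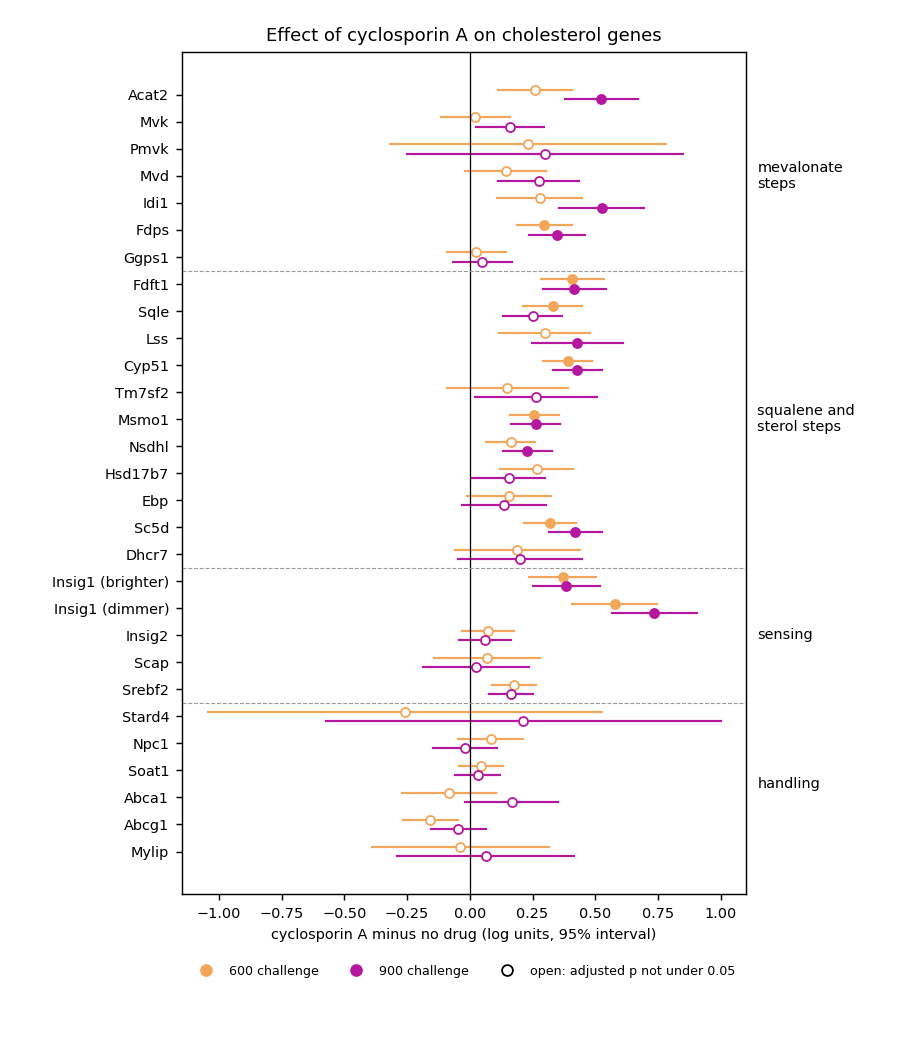
Difference with cyclosporin A minus without it, in log units, for the 29 features of the 28 cholesterol genes at the 600 and the 900 challenge, with 95% intervals from the fit over 18 arrays and filled points where the adjusted p is under 0.05. The synthesis and sensing genes lie to the right of 0 at both challenges, with 0.73 for the dimmer Insig1 feature at the 900 challenge as the largest value past the threshold, and no handling gene has a filled point.

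Among the mevalonate genes, Fdps was higher with the drug at both challenges, and Acat2 and Idi1 were higher at the 900 challenge. Fdps makes farnesyl diphosphate, the branch point toward sterols and toward prenylated proteins. It read 6.83, 6.86 and 6.93 in the 300 culture, 6.85, 6.86 and 6.85 at the 600 challenge and 7.11, 7.19 and 7.15 at the 600 challenge with cyclosporin A. In cells of the 600 culture it read 6.57, 6.67 and 6.71 in the 600 culture, 6.32, 6.45 and 6.44 at the 900 challenge and 6.80, 6.70 and 6.75 at the 900 challenge with cyclosporin A. The drug group lay above the matching challenge on every array at both osmolalities, and at the 600 challenge it lay above the 300 culture too. The drug difference in Fdps was 0.30 ± 0.052 (SE, adjusted p = 0.0242) at the 600 challenge and 0.35 ± 0.052 (adjusted p = 0.00836) at the 900 challenge. The first of these calls was lost without replicates 1, 2 or 3 of the 600 challenge or replicates 1, 2 or 3 of the 600 challenge with cyclosporin A (adjusted p up to 0.0946), and the second without replicate 1 of the 900 challenge with cyclosporin A (adjusted p up to 0.0551).

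Acat2, which joins acetyl-CoA units at the head of the pathway, read 6.03, 6.04 and 6.01 in the 300 culture, 6.02, 5.91 and 5.79 at the 600 challenge and 6.14, 6.15 and 6.21 at the 600 challenge with cyclosporin A. Its values were 5.78, 5.98 and 5.84 in the 600 culture, 5.94, 6.001 and 5.87 at the 900 challenge and 6.51, 6.36 and 6.52 at the 900 challenge with cyclosporin A. The 3 drug arrays of the 900 challenge were its highest of all 18. At that challenge the drug difference in Acat2 was 0.52 ± 0.068 (adjusted p = 0.00289), and at the 600 challenge it was 0.26 ± 0.068, which did not pass (adjusted p = 0.159) although the groups did not overlap. Idi1, the isomerase that readies isopentenyl diphosphate for chain building, read 6.03, 6.07 and 5.85 in the 300 culture, 5.56, 5.70 and 5.65 at the 600 challenge and 5.98, 5.92 and 5.85 at the 600 challenge with cyclosporin A. For the other chain Idi1 values were 5.78, 5.81 and 5.64 in the 600 culture, 5.30, 5.53 and 5.39 at the 900 challenge and 5.88, 6.04 and 5.88 at the 900 challenge with cyclosporin A. The drug arrays lay above the challenge arrays without overlap in both chains. The Idi1 difference passed at the 900 challenge, at 0.53 ± 0.079 (adjusted p = 0.00903), and not at the 600 challenge, at 0.28 ± 0.079 (adjusted p = 0.212).

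The other 4 mevalonate genes did not pass with the drug. For Mvd, which forms isopentenyl diphosphate, the drug difference was 0.14 ± 0.076 at the 600 challenge and 0.27 ± 0.076 at the 900 challenge, and the mean effect of 0.21 had an adjusted p of 0.0897. Mvk, which phosphorylates mevalonate, differed by 0.02 ± 0.064 and 0.16 ± 0.064. Ggps1, which makes geranylgeranyl diphosphate for protein prenylation and lies off the path to sterols, differed by 0.03 ± 0.055 and 0.05 ± 0.055, with 95% intervals of -0.09 to 0.14 and -0.07 to 0.17. Pmvk, the kinase after Mvk, differed by 0.23 ± 0.26 and 0.30 ± 0.26. Its spread between arrays was wide, and the intervals of -0.32 to 0.78 and -0.25 to 0.85 include effects as large as those of the genes that passed.

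In the squalene and sterol steps, Fdft1, Cyp51, Msmo1 and Sc5d were higher with the drug at both challenges, Sqle at the 600 challenge, and Lss and Nsdhl at the 900 challenge. Cyp51, the lanosterol demethylase, had the smallest p of the cholesterol genes. It read 6.80, 6.88 and 6.78 in the 300 culture, 6.77, 6.76 and 6.74 at the 600 challenge and 7.15, 7.14 and 7.15 at the 600 challenge with cyclosporin A. Cells of the 600 culture gave 6.82, 6.89 and 6.92 in the 600 culture, 6.89, 6.92 and 6.81 at the 900 challenge and 7.29, 7.26 and 7.36 at the 900 challenge with cyclosporin A. All 6 drug arrays stood above the other 12, which lay within 6.74 to 6.92. The drug difference in Cyp51 was 0.39 ± 0.046 (adjusted p = 0.00181) and 0.43 ± 0.046 (adjusted p = 0.000558), and the mean effect of 0.41 ± 0.033 (adjusted p = 2.56e-05) ranked 5 of 28328 features by p. With each array left out in turn both calls were kept, with an adjusted p of at most 0.0138 and 0.00565.

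Sc5d, a sterol desaturase of the last steps, read 6.18, 6.19 and 6.23 in the 300 culture, 6.27, 6.14 and 6.29 at the 600 challenge and 6.57, 6.52 and 6.56 at the 600 challenge with cyclosporin A. Its other values were 6.33, 6.35 and 6.41 in the 600 culture, 6.33, 6.35 and 6.27 at the 900 challenge and 6.75, 6.70 and 6.76 at the 900 challenge with cyclosporin A. As for Cyp51, all 6 drug arrays lay above the other 12. The Sc5d difference was 0.32 ± 0.048 (adjusted p = 0.00984) at the 600 challenge and 0.42 ± 0.048 (adjusted p = 0.00111) at the 900 challenge. The call at the 600 challenge was lost without replicate 1 of the 600 challenge with cyclosporin A (adjusted p up to 0.0591).

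Fdft1, squalene synthase, commits farnesyl diphosphate to sterols. It read 6.42, 6.45 and 6.31 in the 300 culture, 6.11, 6.15 and 6.09 at the 600 challenge and 6.55, 6.56 and 6.45 at the 600 challenge with cyclosporin A. At the higher osmolalities it read 6.43, 6.44 and 6.42 in the 600 culture, 6.59, 6.38 and 6.51 at the 900 challenge and 6.84, 6.92 and 6.97 at the 900 challenge with cyclosporin A. The 600 challenge arrays were the 3 lowest of the 18 and the drug arrays of the 900 challenge the 3 highest. With the drug Fdft1 differed by 0.41 ± 0.059 (adjusted p = 0.00638) and 0.42 ± 0.059 (adjusted p = 0.00572), and both calls held with any array left out. Msmo1, a methylsterol oxidase, read 7.55, 7.57 and 7.51 in the 300 culture, 7.24, 7.29 and 7.32 at the 600 challenge and 7.56, 7.54 and 7.51 at the 600 challenge with cyclosporin A. The second chain gave 7.48, 7.57 and 7.52 in the 600 culture, 7.38, 7.29 and 7.38 at the 900 challenge and 7.57, 7.65 and 7.62 at the 900 challenge with cyclosporin A. Without the drug the challenge arrays lay below both unchallenged cultures, and with it they lay within the range of those cultures at the 600 challenge. At the 900 challenge with the drug they lay within that range (7.57) or above it (7.65 and 7.62). The Msmo1 difference was 0.26 ± 0.046 (adjusted p = 0.0263) and 0.26 ± 0.046 (adjusted p = 0.0222). The first call was lost without replicates 1, 2 or 3 of the 600 challenge or replicates 1, 2 or 3 of the 600 challenge with cyclosporin A (adjusted p up to 0.119), and the second without replicates 1, 2 or 3 of the 900 challenge or replicates 1, 2 or 3 of the 900 challenge with cyclosporin A (adjusted p up to 0.102). With the replicate number as a block its adjusted p was 0.0534 at the 600 challenge.

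Sqle, squalene epoxidase, is a rate-controlling step of the sterol branch. It read 6.40, 6.48 and 6.43 in the 300 culture, 6.29, 6.25 and 6.15 at the 600 challenge and 6.62, 6.47 and 6.59 at the 600 challenge with cyclosporin A. In the chain from the 600 culture it read 6.69, 6.64 and 6.64 in the 600 culture, 6.70, 6.62 and 6.72 at the 900 challenge and 6.99, 6.88 and 6.92 at the 900 challenge with cyclosporin A. In both chains the drug group lay above the challenge without overlap. The Sqle difference passed at the 600 challenge, at 0.33 ± 0.055 (adjusted p = 0.0182), and missed the threshold at the 900 challenge, at 0.25 ± 0.055 (adjusted p = 0.0687). The call was lost without replicates 2 or 3 of the 600 challenge or replicates 1 or 3 of the 600 challenge with cyclosporin A (adjusted p up to 0.0939). Lss, which closes the ring to lanosterol, read 5.91, 5.98 and 5.995 in the 300 culture, 5.79, 5.80 and 5.62 at the 600 challenge and 6.05, 5.99 and 6.06 at the 600 challenge with cyclosporin A. The arrays of its second chain stood at 5.50, 5.79 and 5.83 in the 600 culture, 5.54, 5.71 and 5.75 at the 900 challenge and 6.04, 6.08 and 6.16 at the 900 challenge with cyclosporin A. Replicate 1 of the 600 culture and of the 900 challenge were low in Lss beside their groups, and no challenge array reached the drug arrays. Lss differed by 0.30 ± 0.085 (adjusted p = 0.21) at the 600 challenge, which did not pass, and by 0.43 ± 0.085 (adjusted p = 0.0414) at the 900 challenge, a call that was lost without each of 15 of the 18 arrays in turn, and passed without replicate 3 of the 600 challenge or replicate 1 of the 600 culture or replicate 3 of the 600 culture (adjusted p up to 0.158).

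Nsdhl removes methyl groups from the sterol ring together with Msmo1 and Hsd17b7. It read 6.55, 6.58 and 6.55 in the 300 culture, 6.70, 6.71 and 6.79 at the 600 challenge and 6.89, 6.92 and 6.89 at the 600 challenge with cyclosporin A. In cells grown at 600 mosmol/kg it read 6.47, 6.55 and 6.51 in the 600 culture, 6.47, 6.31 and 6.38 at the 900 challenge and 6.62, 6.60 and 6.63 at the 900 challenge with cyclosporin A. The drug arrays were above the challenge arrays in both chains. Nsdhl differed by 0.16 ± 0.046 (adjusted p = 0.209) at the 600 challenge and by 0.23 ± 0.046 (adjusted p = 0.0441) at the 900 challenge, and the second, which passed, was lost without each of 17 of the 18 arrays in turn, and passed without replicate 1 of the 900 challenge (adjusted p up to 0.171). It was also lost after quantile normalization (adjusted p = 0.0584) and with the replicate number as a block (adjusted p = 0.0884).

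The 4 remaining sterol genes were above their no-drug level at both challenges and did not pass. Hsd17b7 differed by 0.27 ± 0.068 and 0.15 ± 0.068, with an adjusted p of 0.0522 for the mean effect. Tm7sf2, a sterol reductase, differed by 0.15 ± 0.11 and 0.26 ± 0.11. For Ebp, a sterol isomerase, the values were 0.15 ± 0.078 and 0.13 ± 0.078, and for Dhcr7, the reductase of the final step, 0.19 ± 0.12 and 0.20 ± 0.12.

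**Figure D2:**
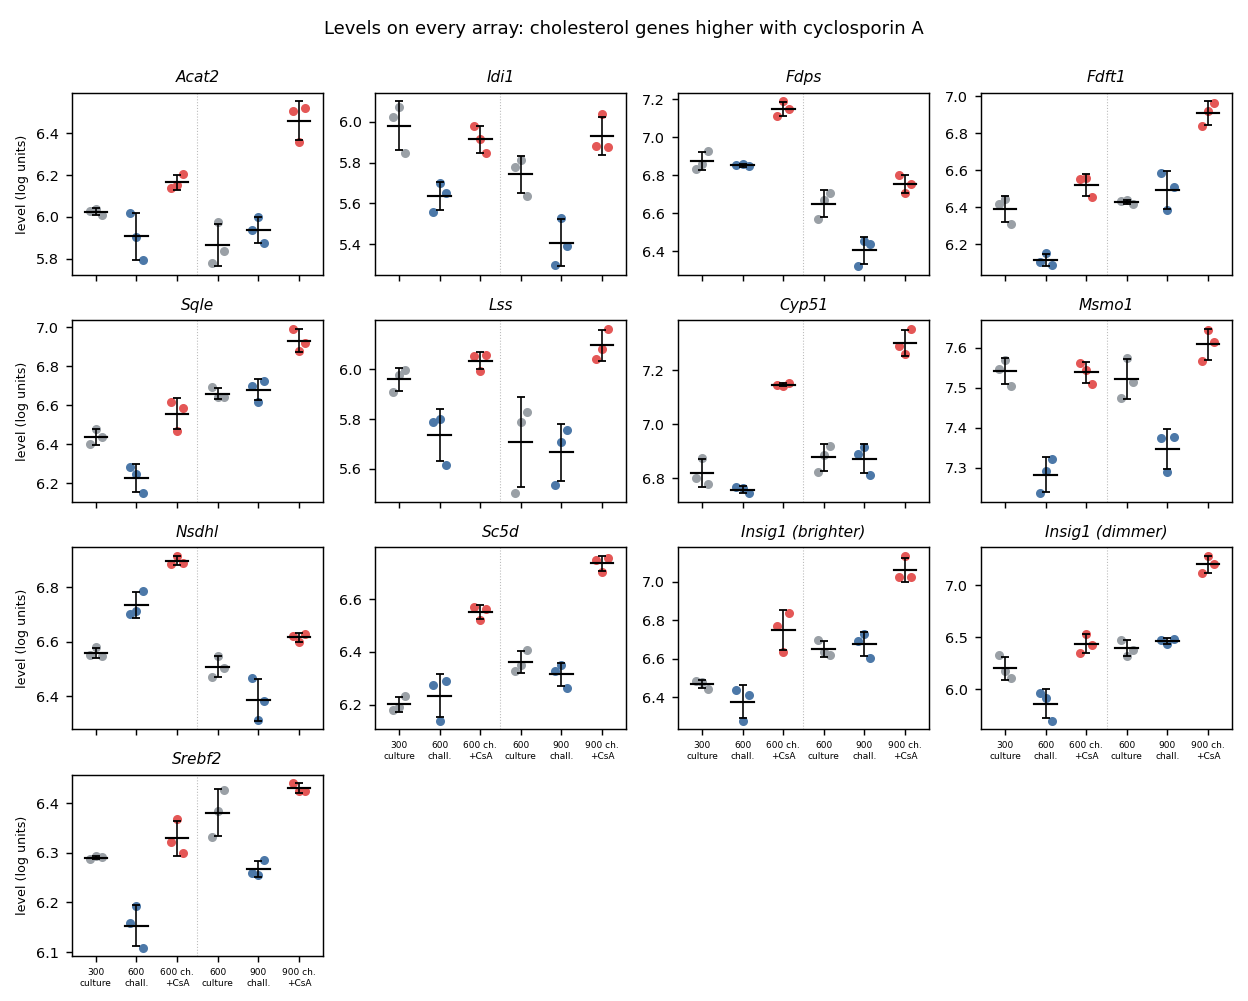
Levels in log units on each of the 18 arrays for the 12 cholesterol genes whose mean drug effect passed the threshold, with both Insig1 features; points are arrays, bars the mean ± SD of 3, and each panel has its own axis, which does not start at 0. In each panel the 3 red points of a drug group lie above the 3 blue points of the same challenge without the drug, as for Cyp51 with 7.15, 7.14 and 7.15 against 6.77, 6.76 and 6.74.

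Of the sensing genes Insig1 was higher with the drug at both challenges, Srebf2 in the mean effect, and Scap and Insig2 in neither. The brighter Insig1 feature (10859880) read 6.49, 6.48 and 6.45 in the 300 culture, 6.44, 6.28 and 6.41 at the 600 challenge and 6.77, 6.63 and 6.84 at the 600 challenge with cyclosporin A. In the second chain it read 6.70, 6.63 and 6.62 in the 600 culture, 6.69, 6.73 and 6.61 at the 900 challenge and 7.02, 7.14 and 7.03 at the 900 challenge with cyclosporin A. The dimmer feature (10861986) read 6.33, 6.18 and 6.11 in the 300 culture, 5.96, 5.92 and 5.70 at the 600 challenge and 6.35, 6.53 and 6.43 at the 600 challenge with cyclosporin A. From the 600 culture on, it read 6.48, 6.32 and 6.38 in the 600 culture, 6.47, 6.43 and 6.49 at the 900 challenge and 7.11, 7.28 and 7.20 at the 900 challenge with cyclosporin A. With both features the drug arrays lay above the challenge without overlap, and the drug arrays of the 900 challenge were the highest of all 18. The brighter feature differed by 0.37 ± 0.062 (adjusted p = 0.0182) and 0.38 ± 0.062 (adjusted p = 0.0146), the dimmer by 0.58 ± 0.079 (adjusted p = 0.00499) and 0.73 ± 0.079 (adjusted p = 0.000558). The features agreed in direction and not in size: the 95% interval of the mean effect was 0.28 to 0.47 for the brighter and 0.54 to 0.78 for the dimmer, whose mean rise of 0.66 was the 14th largest of 28328. The call of the brighter feature was lost at the 600 challenge without replicate 2 of the 600 challenge or replicates 1 or 3 of the 600 challenge with cyclosporin A (adjusted p up to 0.0938), and at the 900 challenge without replicate 3 of the 900 challenge or replicate 2 of the 900 challenge with cyclosporin A (adjusted p up to 0.0768).

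Srebf2, which encodes the transcription factor of the pathway, read 6.29, 6.29 and 6.29 in the 300 culture, 6.16, 6.19 and 6.11 at the 600 challenge and 6.32, 6.37 and 6.30 at the 600 challenge with cyclosporin A. Its values at the higher osmolalities were 6.33, 6.39 and 6.43 in the 600 culture, 6.26, 6.26 and 6.29 at the 900 challenge and 6.44, 6.42 and 6.43 at the 900 challenge with cyclosporin A. The 2 drug groups lay above their challenges without overlap. The differences of 0.18 ± 0.041 and 0.16 ± 0.041 did not pass on their own (adjusted p = 0.104 and 0.116), and the mean effect of 0.17 ± 0.029 did (adjusted p = 0.0109). Scap, its escort, differed by 0.07 ± 0.10 and 0.02 ± 0.10, and Insig2, the paralog of Insig1 that is not known as a target of the factor, by 0.07 ± 0.048 and 0.06 ± 0.048. The 95% intervals of Insig2 were -0.03 to 0.18 and -0.04 to 0.16, so a rise as large as that of Insig1 lay outside them.

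None of the 6 handling genes passed with cyclosporin A at either challenge or in the mean effect, and 0 passed in the fits of only the groups compared. At an unadjusted p under 0.05 there were 1, 0 and 1 of the 6, beside 2406, 2990 and 3203 of the 28328 features. The gene at an unadjusted p under 0.05 was Abcg1, the sterol exporter, at -0.16 ± 0.051 (adjusted p = 0.308) at the 600 challenge and -0.05 ± 0.051 at the 900 challenge. Its partner Abca1 differed by -0.08 ± 0.087 and 0.17 ± 0.087, Npc1 by 0.08 ± 0.060 and -0.02 ± 0.060, and Soat1 by 0.04 ± 0.041 and 0.03 ± 0.041. Mylip, the ubiquitin ligase that marks lipoprotein receptors for breakdown, differed by -0.04 ± 0.16 and 0.06 ± 0.16. Stard4, a carrier of cholesterol between membranes, is under the control of the same factor as the synthesis genes in other cells. Its feature was dim and scattered, at 3.002, 2.35 and 3.28 at the 600 challenge against 2.58, 2.61 and 2.66 with the drug, and at 2.03, 2.30 and 2.66 against 1.94, 3.07 and 2.61 at the 900 challenge, with intervals of -1.05 to 0.53 and -0.57 to 1.00.

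The drug effect did not differ between the challenges past the threshold for any of the 28 genes (0.0459% of all features did, 13 in number, 0.0388% higher and 0.00706% lower). At an unadjusted p under 0.05 there were 2 of the 28 genes, Acat2 and Idi1, beside 2150 of the 28328 features, a similar share. The drug difference was larger at the 900 challenge by 0.27 ± 0.10 (adjusted p = 0.543) in Acat2 and by 0.25 ± 0.11 (adjusted p = 0.645) in Idi1. The fit of only the 4 challenge groups also called 0. Groups did not overlap at the 600 challenge for 18 genes, 17 with the drug arrays higher and Abcg1 with them lower, against 13.2% of all features, and at the 900 challenge for 14 genes, all with the drug arrays higher, against 15.8%.

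The promoters of the cholesterol genes were read from RefSeq (build GRCr8): 300 bases a gene, 250 before the annotated start and 50 from it, for 23 of the 28 genes, 10 of them genes whose mean drug effect passed and 13 not. The 250 bases before the start are shown for Insig1 and Fdps, genes called higher at both challenges, for Msmo1, whose window holds 3 CCAAT boxes, and for Cyp51, which was called at both and holds none. Each runs 5′ to 3′ on the strand of the gene, and capitals mark CCAAT or its reverse complement.
Insig1 (chr4:8057770-8058019, minus strand): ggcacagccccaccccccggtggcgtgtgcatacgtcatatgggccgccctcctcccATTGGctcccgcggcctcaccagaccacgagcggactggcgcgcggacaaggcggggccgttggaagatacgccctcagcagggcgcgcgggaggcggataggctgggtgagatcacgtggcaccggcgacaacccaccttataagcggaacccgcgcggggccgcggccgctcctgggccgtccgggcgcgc
Fdps (chr2:176804817-176805066, minus strand): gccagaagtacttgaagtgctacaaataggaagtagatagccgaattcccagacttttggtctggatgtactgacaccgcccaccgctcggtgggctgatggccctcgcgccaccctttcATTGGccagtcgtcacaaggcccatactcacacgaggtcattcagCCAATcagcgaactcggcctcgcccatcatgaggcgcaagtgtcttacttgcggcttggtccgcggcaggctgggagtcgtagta
Msmo1 (chr16:29746863-29747112, plus strand): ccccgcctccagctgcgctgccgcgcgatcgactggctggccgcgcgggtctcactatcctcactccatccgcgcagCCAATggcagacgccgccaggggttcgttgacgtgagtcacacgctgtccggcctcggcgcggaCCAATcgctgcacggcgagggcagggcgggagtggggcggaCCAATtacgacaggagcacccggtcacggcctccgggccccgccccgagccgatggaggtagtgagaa
Cyp51 (chr4:30991443-30991692, plus strand): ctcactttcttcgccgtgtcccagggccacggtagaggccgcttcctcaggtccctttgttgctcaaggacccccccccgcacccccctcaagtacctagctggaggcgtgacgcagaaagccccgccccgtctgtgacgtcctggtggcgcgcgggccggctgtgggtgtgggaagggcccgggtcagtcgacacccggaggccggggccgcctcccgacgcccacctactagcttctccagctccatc

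The CCAAT box is the site of NF-Y, a factor known to act beside the Srebf2 product at many sterol genes. Searched on both strands, CCAAT was in the 300-base window of 17 of 23 genes (73.9%), against 37.5% of 33465 rat promoters of that length and 38.2% of the 12512 that belong to genes named on the array. It lay at -193 to -189 in Insig1, where -1 is the last base before the start, at -130 to -126 and -85 to -81 in Fdps, and at -173 to -169, -109 to -105 and -68 to -64 in Msmo1. It was in 8 of 10 promoters of genes whose mean drug effect passed and in 9 of 13 of the others. The GC box GGGCGG, a site of Sp1, was in 19 of 23 (82.6%), against 33.1% of all promoters and 50.1% of those on the array. In the last 150 bases of the window those shares of the GC box lay closer, at 47.8% of the members and 39.1% of the promoters on the array. The E-box CACGTG was in 4 of 23 (17.4%; 6.42% and 7.77%). The sterol element core TCACNCCAC was in 0 of 23 (1.12% of all) and the liver X receptor element, AGGTCA repeated after any 4 bases, in 0 of 23 (0.00598%). These are matches of letters in a fixed window. A match is not a bound site, and 0 matches means that these letters are not in these windows.

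Without the drug, the step from 300 to 600 mosmol/kg lowered some cholesterol genes and raised others. This comparison and the next are those the series names, each challenge against the culture it came from. At the 600 challenge 8 of 28 genes fell and 4 rose, against 8.07% and 6.36% of all features (14.4% in either direction, and 19.0% of the features with 1 symbol). By sign 14 were above the 300 culture and 14 below it, with a median difference of 0.0063. The genes that fell were Idi1, Fdft1, Sqle, Msmo1, Hsd17b7, Srebf2, Soat1 and Abca1, and those that rose were Tm7sf2, Nsdhl, Ebp and Abcg1. The falls in the synthesis pathway were -0.35 ± 0.079 (adjusted p = 0.00789) in Idi1, -0.35 ± 0.068 (adjusted p = 0.00252) in Hsd17b7, -0.28 ± 0.059 (adjusted p = 0.00467) in Fdft1, -0.26 ± 0.046 (adjusted p = 0.00123) in Msmo1 and -0.21 ± 0.055 (adjusted p = 0.018) in Sqle. Srebf2 fell by 0.14 log units (adjusted p = 0.0362). The dimmer Insig1 feature fell too, by 0.34 (adjusted p = 0.00833), and the brighter differed by -0.09 ± 0.062 and did not pass (adjusted p = 0.382). The rises of sterol genes were 0.41 ± 0.11 (adjusted p = 0.0259) in Tm7sf2, 0.27 ± 0.078 (adjusted p = 0.0331) in Ebp and 0.18 ± 0.046 (adjusted p = 0.0184) in Nsdhl.

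In a fit of only the 2 groups 5 of these 12 passed, Fdft1, Msmo1, Hsd17b7, Abca1 and Abcg1, as did 2902 of the 28328 features. Single arrays decided several calls. Sqle was lost without replicate 2 of the 300 culture or replicate 3 of the 600 challenge (adjusted p up to 0.0815). Tm7sf2 was lost without replicates 2 or 3 of the 300 culture or replicates 1 or 2 of the 600 challenge (adjusted p up to 0.118), Ebp without replicates 2 or 3 of the 300 culture or replicates 1 or 2 of the 600 challenge (adjusted p up to 0.121) and Nsdhl without replicates 1 or 3 of the 300 culture or replicate 3 of the 600 challenge (adjusted p up to 0.0781). Srebf2 was lost without replicates 1, 2 or 3 of the 300 culture or replicates 1 or 3 of the 600 challenge (adjusted p up to 0.129), and also with arrays centred on their medians (adjusted p = 0.0932), after quantile normalization (adjusted p = 0.0532) and with the replicate number as a block (adjusted p = 0.0537). Abca1 was lost without replicates 2 or 3 of the 300 culture or replicates 1, 2 or 3 of the 600 challenge (adjusted p up to 0.12). The count of 12 was 7 without replicate 2 of the 300 culture. Without regard to the test, the arrays of the 600 challenge and the 300 culture did not overlap for 19 genes, 7 higher and 12 lower, against 32.3% of all features.

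The step from 600 to 900 mosmol/kg raised Pmvk most and lowered several genes that the first step had lowered. Of 28 genes 5 rose and 5 fell, against 6.43% and 11.0% of all features (17.4% in either direction, and 23.0% of the features with 1 symbol). By sign 13 were above the 600 culture and 15 below it, with a median difference of -0.02. Pmvk, Tm7sf2, Insig2, Npc1 and Abcg1 rose, and Idi1, Fdps, Msmo1, Hsd17b7 and Soat1 fell. The largest difference was in Pmvk, at 1.27 ± 0.26 (adjusted p = 0.00278), and every array of the 900 challenge (4.43, 4.32 and 4.93) lay above every array of the 600 culture (3.35, 3.51 and 3.01). Idi1 fell by 0.34 (adjusted p = 0.00807) and Fdps by 0.24 (adjusted p = 0.00378). Msmo1 fell by 0.17 and Hsd17b7 by 0.23 (adjusted p = 0.0154 and 0.0334). Tm7sf2 rose by 0.38 ± 0.11 (adjusted p = 0.0297) and Insig2 by 0.26 ± 0.048 (adjusted p = 0.00137). The groups did not overlap for 16 genes, 8 in each direction (31.8% of all features). In the fit of only these 2 groups Pmvk, Tm7sf2, Npc1, Soat1 and Abcg1 passed. Tm7sf2 was lost without replicates 1 or 3 of the 600 culture or replicates 1 or 2 of the 900 challenge (adjusted p up to 0.109), Msmo1 without replicate 2 of the 600 culture or replicate 2 of the 900 challenge (adjusted p up to 0.076), and Hsd17b7 without replicates 1, 2 or 3 of the 600 culture or replicates 1 or 2 of the 900 challenge (adjusted p up to 0.131). The calls of Hsd17b7 and Msmo1 also ended after quantile normalization (adjusted p = 0.0946 and 0.0684), and that of Hsd17b7 with arrays centred on their medians (adjusted p = 0.0778).

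**Figure D3:**
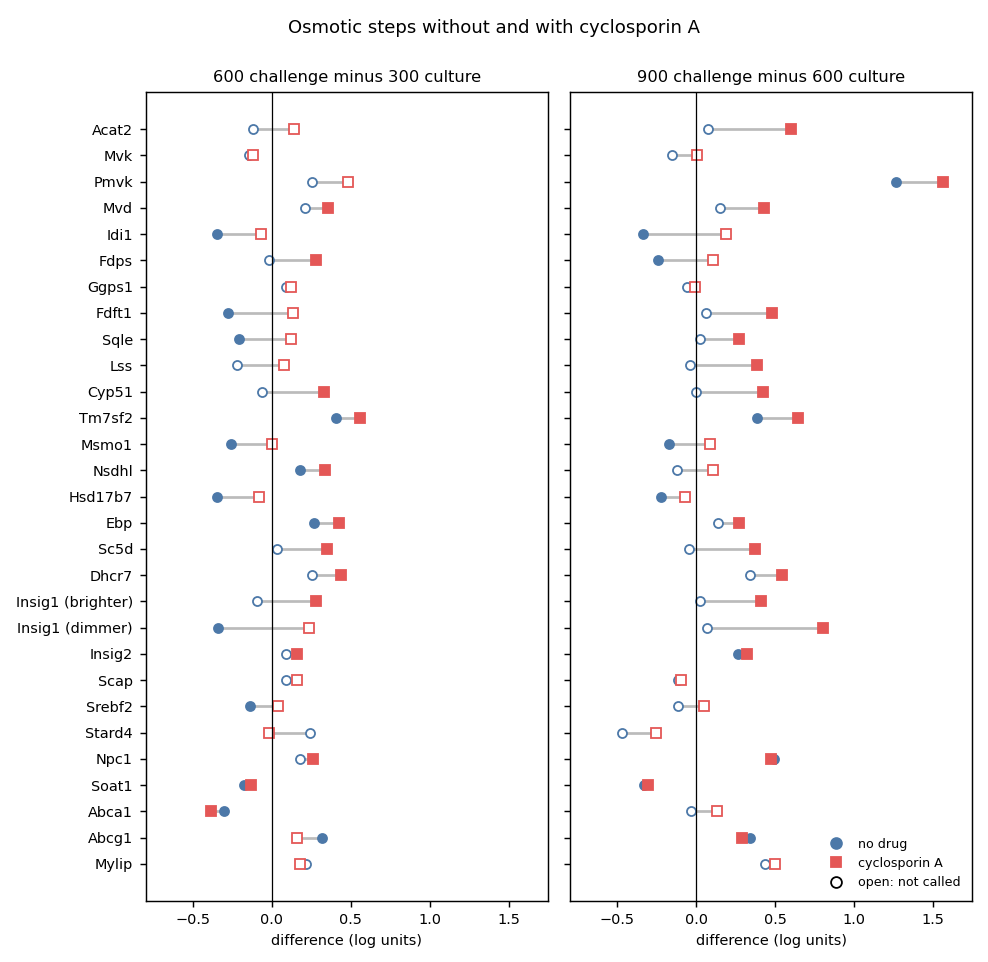
Difference of each challenge from its unchallenged culture in log units, without the drug (circles) and with cyclosporin A (squares), for the 29 features; a grey line joins the 2 values of a feature, and filled symbols passed an adjusted p of 0.05. Both steps of a chain share the arrays of the unchallenged culture. In Idi1 the step to 900 was -0.34 without the drug and 0.19 with it, and Pmvk had the longest distance from 0, at 1.27 and 1.57.

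With cyclosporin A present, most of the cholesterol genes that differed from the unchallenged cultures were higher. These comparisons share the culture arrays with those without the drug, and their difference is the drug effect given above. At the 600 challenge with the drug 11 of 28 genes were higher than in the 300 culture and 2 lower, against 6.21% and 7.85% of all features (14.1% in all). Higher were Mvd, Fdps, Cyp51, Tm7sf2, Nsdhl, Ebp, Sc5d, Dhcr7, Insig1, Insig2 and Npc1, and lower were Soat1 and Abca1. Among them Ebp differed by 0.42 ± 0.078 (adjusted p = 0.00172), Mvd by 0.35 ± 0.076 (adjusted p = 0.00525), Dhcr7 by 0.44 ± 0.12 (adjusted p = 0.0188) and Nsdhl by 0.34 ± 0.046 (adjusted p = 0.000127). The 5 synthesis genes that had fallen without the drug did not pass with it. Idi1 differed by -0.07 ± 0.079, Fdft1 by 0.13 ± 0.059, Sqle by 0.12 ± 0.055, Msmo1 by -0.00 ± 0.046 and Hsd17b7 by -0.08 ± 0.068. The fit of only these 2 groups called 7, all higher: Mvd, Fdps, Cyp51, Nsdhl, Ebp, Sc5d and Npc1.

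The groups did not overlap for 19 genes, 16 with the drug arrays higher (30.6% of all features). Some of these calls hung on single arrays. Dhcr7 was lost without replicates 1 or 2 of the 300 culture or replicates 1 or 2 of the 600 challenge with cyclosporin A (adjusted p up to 0.0956) and Insig2 without replicates 1, 2 or 3 of the 300 culture or replicates 1, 2 or 3 of the 600 challenge with cyclosporin A (adjusted p up to 0.135). Soat1, at -0.13 ± 0.041 (adjusted p = 0.0489), was lost without each of 16 of the 18 arrays in turn, and passed without replicate 1 of the 600 challenge with cyclosporin A or replicate 2 of the 600 culture (adjusted p up to 0.149). It was also lost with arrays centred on their medians (adjusted p = 0.123).

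At the 900 challenge with the drug 15 of 28 genes were higher than in the 600 culture and Soat1 was lower, against 7.27% and 10.5% of all features (17.8% in all). The 15 were Acat2, Pmvk, Mvd, Fdft1, Sqle, Lss, Cyp51, Tm7sf2, Ebp, Sc5d, Dhcr7, Insig1, Insig2, Npc1 and Abcg1. Pmvk differed by 1.57 ± 0.26 (adjusted p = 0.000515), the dimmer Insig1 feature by 0.81 ± 0.079 (adjusted p = 4.88e-06), Tm7sf2 by 0.65 ± 0.11 (adjusted p = 0.000888), Acat2 by 0.60 ± 0.068 (adjusted p = 2.05e-05) and Dhcr7 by 0.54 ± 0.12 (adjusted p = 0.00391). Dhcr7 read 4.52, 4.64 and 4.997 in the 300 culture, 5.06, 4.83 and 5.02 and 5.16, 5.20 and 5.11 at the 600 challenge without and with the drug, 4.95, 4.83 and 4.85 in the 600 culture, and 5.36, 5.20 and 5.08 and 5.24, 5.47 and 5.54 at the 900 challenge. Its 300 culture arrays spread over a wider range than those of any other group. Ebp read 5.23, 5.15 and 5.12 in the 300 culture, 5.50, 5.49 and 5.31 at the 600 challenge and 5.54, 5.63 and 5.60 at the 600 challenge with cyclosporin A. The Ebp values of the second chain were 5.40, 5.39 and 5.25 in the 600 culture, 5.50, 5.54 and 5.41 at the 900 challenge and 5.76, 5.45 and 5.65 at the 900 challenge with cyclosporin A. Its call here, at 0.27 ± 0.078 (adjusted p = 0.0245), was lost without replicate 3 of the 600 culture or replicates 1 or 3 of the 900 challenge with cyclosporin A (adjusted p up to 0.117). Mvd read 5.12, 5.14 and 5.21 in the 300 culture, 5.37, 5.46 and 5.27 at the 600 challenge and 5.51, 5.47 and 5.55 at the 600 challenge with cyclosporin A. The second chain of Mvd gave 4.93, 5.02 and 5.20 in the 600 culture, 5.17, 5.13 and 5.31 at the 900 challenge and 5.48, 5.38 and 5.57 at the 900 challenge with cyclosporin A. The drug arrays of Mvd lay above both unchallenged cultures. The groups did not overlap for 19 genes, 18 with the drug arrays higher (31.3% of all features), and the fit of only the 2 groups called 14 genes.

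The osmotic step itself differed between the chains for 3 genes, 2 higher and 1 lower (7.58% of all features, 3.52% higher and 4.06% lower; 10.2% of the features with 1 symbol). As a share of 28 that is 10.7%, near the share of the features with 1 symbol. Fdft1 fell at the 600 challenge by 0.28 and differed by 0.06 at the 900 challenge, a difference of 0.34 ± 0.083 (adjusted p = 0.0222). Npc1 rose more at the 900 challenge, by 0.31 ± 0.085 (adjusted p = 0.0374). Nsdhl went the other way, 0.18 at the 600 challenge and -0.12 at the 900 challenge, a difference of -0.30 ± 0.065 (adjusted p = 0.0121). For the dimmer Insig1 feature the difference was 0.41 ± 0.11 (adjusted p = 0.0378), and for the brighter, which represents the gene, 0.12 ± 0.088 (adjusted p = 0.506). The count was 1 (Nsdhl) without replicate 2 of the 300 culture, replicate 3 of the 600 challenge or replicate 1 of the 900 challenge, and 6 with an intensity trend in the prior variance.

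Growth at 600 rather than 300 mosmol/kg went with differences of its own. In the 600 culture 6 of 28 genes were higher and 4 lower than in the 300 culture, against 8.33% and 8.84% of all features (17.2% in all, and 23.0% of the features with 1 symbol). Sqle, Tm7sf2, Sc5d, Insig2, Soat1 and Abcg1 were higher, and Mvk, Fdps, Hsd17b7 and Abca1 were lower. Tm7sf2 read 4.57, 4.03 and 4.25 in the 300 culture, 4.78, 4.74 and 4.54 at the 600 challenge and 4.70, 4.85 and 4.95 at the 600 challenge with cyclosporin A. It then read 5.26, 5.36 and 5.25 in the 600 culture, 5.77, 5.67 and 5.58 at the 900 challenge and 5.95, 5.88 and 5.98 at the 900 challenge with cyclosporin A. Every array of the 600 culture was above every array grown at 300 mosmol/kg, challenged or not. The Tm7sf2 difference between the cultures was 1.01 ± 0.11 (adjusted p = 1.17e-05). Hsd17b7, which read 5.30, 5.35 and 5.33 in the 300 culture, 4.93, 4.93 and 5.06 at the 600 challenge and 5.26, 5.12 and 5.34 at the 600 challenge with cyclosporin A, then 4.90, 4.998 and 4.90 in the 600 culture, 4.65, 4.65 and 4.83 at the 900 challenge and 4.92, 4.81 and 4.86 at the 900 challenge with cyclosporin A, ran the other way: the 300 culture was high and the 600 culture low, at -0.39 ± 0.068 (adjusted p = 0.000676). Mvk was lower in the 600 culture by 0.31 log units (adjusted p = 0.00287) and Fdps by 0.22 (adjusted p = 0.00684). Insig2 read 5.54, 5.48 and 5.56 in the 300 culture, 5.69, 5.57 and 5.58 at the 600 challenge and 5.71, 5.68 and 5.68 at the 600 challenge with cyclosporin A. Its level was 5.89, 5.78 and 5.83 in the 600 culture, 6.15, 6.06 and 6.07 at the 900 challenge and 6.17, 6.14 and 6.15 at the 900 challenge with cyclosporin A. Without the drug it was higher by 0.31 ± 0.048 (adjusted p = 0.000312) in the 600 culture and by a further 0.26 at the 900 challenge, while the 600 challenge differed from the 300 culture by 0.09 ± 0.048 and did not pass. The cultures did not overlap for 16 genes, 9 of them higher at 600 mosmol/kg (32.8% of all features). Sc5d was lost without replicates 1, 2 or 3 of the 300 culture or replicates 2 or 3 of the 600 culture (adjusted p up to 0.124) and Sqle without replicate 1 of the 300 culture (adjusted p up to 0.0511).

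Cells at 600 mosmol/kg for 24 h and cells grown there differed in 14 of 28 genes, 5 higher and 9 lower after 24 h, against 7.69% and 8.74% of all features (16.4% in all, and 22.0% of the features with 1 symbol). Mvd, Fdps, Nsdhl, Npc1 and Abca1 were higher after 24 h. Fdft1, Sqle, Tm7sf2, Msmo1, Insig1, Insig2, Srebf2, Soat1 and Abcg1 were lower. The sensing genes Insig1, Insig2 and Srebf2 were on the lower side, with -0.27 ± 0.062 (adjusted p = 0.0061) for the brighter Insig1 feature, -0.53 ± 0.079 (adjusted p = 0.000213) for the dimmer, -0.23 ± 0.041 (adjusted p = 0.00106) for Srebf2 and -0.22 ± 0.048 (adjusted p = 0.00524) for Insig2. Sqle was lower by 0.43 (adjusted p = 4.97e-05) and Tm7sf2 by 0.60 (adjusted p = 0.00154). The groups did not overlap for 18 genes, 7 of them higher after 24 h (30.9% of all features). This comparison shares the 600 challenge arrays with the step from 300. The fit of only these 2 groups called 6, Fdft1, Sqle, Tm7sf2, Soat1, Abca1 and Abcg1. Mvd was lost without replicate 1 of the 600 culture (adjusted p up to 0.0502) and Fdps without replicate 1 of the 600 culture (adjusted p up to 0.0683).

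**Figure D4:**
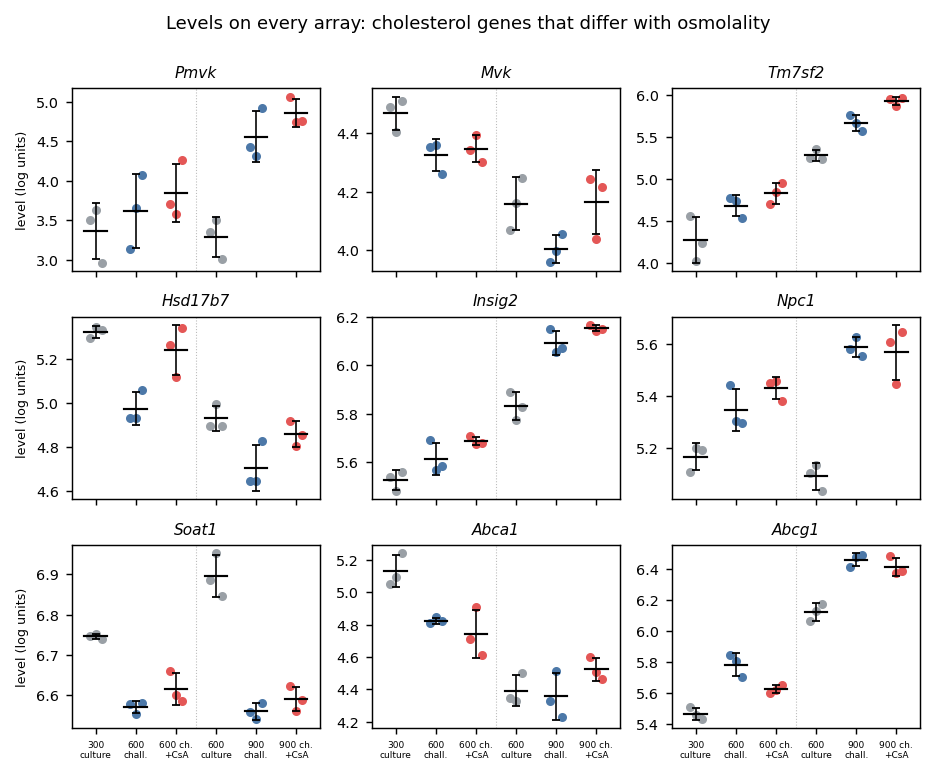
Levels in log units on each of the 18 arrays for 9 cholesterol genes that differed with osmolality; points are arrays, bars the mean ± SD of 3, and each panel has its own axis, which does not start at 0. Pmvk is high in the 900 groups (4.43, 4.32 and 4.93 without the drug), Tm7sf2 and Abcg1 are higher in the chain grown at 600 mosmol/kg, and Abca1 is highest in the 300 culture (5.06, 5.10 and 5.24).

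Of the 6 handling genes, Npc1, Soat1, Abca1 and Abcg1 changed in at least 1 osmotic comparison. At the 600 challenge and between the cultures the exporter Abca1 was lower and the exporter Abcg1 higher. Abca1 read 5.06, 5.10 and 5.24 in the 300 culture, 4.81, 4.85 and 4.82 at the 600 challenge and 4.71, 4.91 and 4.61 at the 600 challenge with cyclosporin A. It read 4.35, 4.33 and 4.50 in the 600 culture, 4.33, 4.52 and 4.23 at the 900 challenge and 4.60, 4.51 and 4.46 at the 900 challenge with cyclosporin A. The 300 culture was high, the 600 challenge lower, and the 600 culture lower again, by -0.74 ± 0.087 (adjusted p = 1.87e-05) between the cultures. At the step to 900 Abca1 differed by -0.03 ± 0.087 (adjusted p = 0.862) and did not pass. Abcg1 read 5.51, 5.46 and 5.44 in the 300 culture, 5.85, 5.81 and 5.70 at the 600 challenge and 5.60, 5.62 and 5.66 at the 600 challenge with cyclosporin A. Its values rose to 6.07, 6.13 and 6.18 in the 600 culture, 6.42, 6.48 and 6.49 at the 900 challenge and 6.48, 6.38 and 6.39 at the 900 challenge with cyclosporin A. No array of the 600 culture chain overlapped with the arrays of the 300 chain. Abcg1 was higher by 0.32 ± 0.051 (adjusted p = 0.000594) at the 600 challenge, by 0.66 ± 0.051 (adjusted p = 2.69e-07) between the cultures and by 0.34 ± 0.051 (adjusted p = 0.000279) at the 900 challenge.

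Npc1, the lysosomal exporter, read 5.11, 5.20 and 5.19 in the 300 culture, 5.44, 5.30 and 5.30 at the 600 challenge and 5.45, 5.46 and 5.38 at the 600 challenge with cyclosporin A. In the second chain it read 5.11, 5.14 and 5.04 in the 600 culture, 5.58, 5.63 and 5.55 at the 900 challenge and 5.61, 5.45 and 5.65 at the 900 challenge with cyclosporin A. The 2 cultures were its lowest groups and the challenges its highest. The step to 900 was 0.49 ± 0.060 (adjusted p = 3.87e-05) and the step to 600 was 0.18 ± 0.060 (adjusted p = 0.0628), which did not pass. Soat1, which stores cholesterol as ester, read 6.75, 6.75 and 6.74 in the 300 culture, 6.58, 6.56 and 6.58 at the 600 challenge and 6.66, 6.60 and 6.59 at the 600 challenge with cyclosporin A. It then read 6.89, 6.95 and 6.85 in the 600 culture, 6.56, 6.54 and 6.58 at the 900 challenge and 6.62, 6.56 and 6.59 at the 900 challenge with cyclosporin A. The challenges fell below both cultures on every array, by 0.17 at 600 (adjusted p = 0.0094) and by 0.33 at 900 (adjusted p = 4.24e-05), and the 600 culture was higher than the 300 culture by 0.15 ± 0.041 (adjusted p = 0.0208), a call lost without replicates 1, 2 or 3 of the 300 culture or replicate 2 of the 600 culture (adjusted p up to 0.0997). Mylip and Stard4 passed in no comparison: Mylip ran from 3.08, 3.74 and 3.50 in the 300 culture to 4.26, 4.38 and 4.24 at the 900 challenge, with a step to 900 of 0.43 ± 0.16 (adjusted p = 0.092). Pmvk, beside the 1.27 at the step to 900, read 3.51, 3.63 and 2.97 in the 300 culture, 3.13, 3.65 and 4.07 at the 600 challenge and 3.71, 3.58 and 4.27 at the 600 challenge with cyclosporin A. Its spread in those 3 groups was wider than the differences between them.

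Most markers of macrophages, of fibroblasts and of cell division fell at the same steps. At the 600 challenge 14 of 16 macrophage and leukocyte markers, 11 of 14 fibroblast and smooth muscle markers, 7 of 11 endothelial markers and 12 of 13 proliferation markers fell. At the 900 challenge the numbers were 14, 12, 6 and 12. Over all features 8.07% fell at the 600 challenge and 11.0% at the 900 challenge. Endothelial markers also rose, 1 and 2 of them, and none of the other 3 lists had a rise. Of the 16 principal cell markers 3 rose and 4 fell at the 600 challenge, and 8 rose and 3 fell at the 900 challenge, where Aqp2 differed by 1.44. Between the cultures 15 macrophage markers were lower in the 600 culture, and 10 principal cell markers were higher and 2 lower. Of all features 8.33% were higher and 8.84% lower there. After 24 h at 600 mosmol/kg, 11 principal cell, 12 proliferation, 10 fibroblast and 7 endothelial markers were lower than in the 600 culture. Of the fibroblast markers 1 was higher, and of the macrophage markers 5 were higher and 5 lower. Over all features 7.69% were higher and 8.74% lower in that comparison. The mean log level of the proliferation list was 4.85 to 4.90 in the 300 culture and 3.84 to 3.90 at the 600 challenge, and 4.75 to 4.79 in the 600 culture and 4.02 to 4.33 at the 900 challenge. That of the fibroblast list was 6.14 to 6.18 and 5.20 to 5.28, then 5.79 to 5.83 and 4.91 to 5.08. Macrophages express Abca1, Abcg1, Soat1 and Npc1. Soat1 fell at both steps and Abca1 at the 600 challenge, while Abcg1 rose at both steps and Npc1 at the 900 challenge. In the 600 culture Abca1 was lower than in the 300 culture, and Soat1 and Abcg1 were higher. Of 12 markers of other tubule segments 2 rose and 0 fell at the 600 challenge, and 1 rose and 1 fell at the 900 challenge. These tubule counts were near the shares of all features that changed in either direction, 14.4% and 17.4%. The part of these cells in the values of the cholesterol genes was not tested.

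Further gene lists covered other genes of lipid metabolism. Of 24 measured genes from a list of 32 further cholesterol genes (uptake, oxysterols, transport and control of the sensing machinery), 0 were higher and 1 lower with the drug at the 600 challenge. The gene that fell was Cav1, caveolin, the coat protein of cholesterol-rich membrane pits, at -0.24 ± 0.046 (adjusted p = 0.0372). At the 900 challenge 0 changed, and 5 had an unadjusted p under 0.05, beside 2990 of the 28328 features. In fits of only the 2 groups compared, 0 features of any kind passed at either challenge. The median difference of this list was 0.02 and 0.01. Of 14 fatty acid genes that SREBP factors are known to control, all measured, 3 were higher with the drug at the 600 challenge and 5 at the 900 challenge, with 0 lower, and 8 in the mean effect. Over all features 0.409%, 0.505% and 1.14% changed in those comparisons. Fads2, a desaturase of polyunsaturated fatty acids, differed by 0.60 ± 0.061 (adjusted p = 0.000625) and 0.73 ± 0.061 (adjusted p = 8.19e-05). Scd, the stearoyl-CoA desaturase, differed by 0.67 ± 0.12 (adjusted p = 0.026) and 0.81 ± 0.12 (adjusted p = 0.00816), and its paralog Scd2 by 0.34 ± 0.042 (adjusted p = 0.00212) and 0.32 ± 0.042 (adjusted p = 0.00323). Fasn, fatty acid synthase, was higher at the 900 challenge by 0.45 ± 0.067 (adjusted p = 0.00836), and Acly, which supplies cytosolic acetyl-CoA, by 0.27 ± 0.053 (adjusted p = 0.0418). The list's median difference was 0.18 at the 600 challenge and 0.29 at the 900 challenge.

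Without the drug, members of both lists changed in either direction at the steps, where 14.4% of all features (19.0% of those with 1 symbol) passed at the 600 challenge and 17.4% (23.0%) at the 900 challenge. Of the 24 further cholesterol genes 1 rose and 6 fell at the 600 challenge, and 4 rose and 7 fell at the 900 challenge, with median differences of -0.08 and -0.07. Ch25h, which makes an oxysterol and is an inflammatory gene of macrophages, fell by 1.35 and 0.74. Apoe fell by 1.06 and 0.69, and Vldlr, a lipoprotein receptor, by 0.97 and 0.30. Abca2, a transporter of the lysosomal membrane, rose by 0.57 and 0.80. Of the 14 fatty acid genes 4 rose and 5 fell at the 600 challenge, and 1 rose and 4 fell at the 900 challenge, with medians of 0.0042 and -0.0095. Fads1 fell at both steps, by 1.045 and 0.64, Fads2 by 0.76 and 0.71, and Scd by 0.53 and 0.41. Acss2 fell by 0.57 at the 600 challenge and did not pass at the 900 challenge. Fasn rose by 0.37 at the 600 challenge and fell by 0.36 at the 900 challenge. Me1, malic enzyme, which supplies reducing power for fatty acid synthesis, rose at both, by 0.52 and 0.71.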

How the data were processed

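RNA of 18 samples was labelled with biotin and read on Affymetrix whole-transcript arrays, per the labels' protocols. The authors deposited 1 value per feature and array on a log scale. Its base, the summarisation and the normalization are not named in any source used here. The values were used as deposited, with no filter, background correction or pseudocount, since the base affects the size of differences and not their p-values. The deposited files give no detection call, so whether a feature lies above background is not known. Separately, 3 arrays a group limit the precision. Symbols came from the platform's gene table: 15295 features have 1 symbol, 322 several and 12711 none, and the last 2 kinds were not named. Groups were taken from the titles. A linear model with 6 group means was fitted to all 28328 features with limma 3.58.1 in R 4.3.3, with empirical Bayes variances (2.03 prior degrees of freedom beside 12 residual, 14 in total), 11 contrasts and Benjamini-Hochberg adjustment over all features at 0.05. The script was tested on simulated data. Values on every array are given for genes past the threshold in a drug comparison or in 2 or more osmotic comparisons, and any of the 30 members could be named. The members, lists and tests were chosen with earlier results of these data known. Promoters were matched by gene identifier or symbol in RefSeq's table (GRCr8). Alternatives were median centring, quantile normalization, fits of only the groups compared, the replicate number as a block, a filter on dim features, a trend or robust prior variance, the mean of a gene's features, and leaving out each array.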

Additional observations from a re-analysis of the deposited data

Results flagged for a closer look

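The osmotic step differed between the chains for 4 features of the cholesterol genes, by the interaction term of the limma fit (step to 900 minus step to 600, adjusted over all features), of 29 tested, where 7.58% of all features and 10.2% of those with 1 symbol passed. The difference was 0.34 log units for Fdft1, squalene synthase, whose step was -0.28 at the 600 challenge and 0.06 at the 900 challenge. Its arrays without the drug moved down at the 600 challenge (6.42, 6.45 and 6.31 to 6.11, 6.15 and 6.09). For Npc1 the difference was 0.31, with steps of 0.18 and 0.49. For the dimmer Insig1 feature it was 0.41, with steps of -0.34 and 0.07, while the brighter feature of the same gene had 0.12 and did not pass (adjusted p = 0.506). For Nsdhl it was -0.30, with steps of 0.18 and -0.12. With single arrays left out, Nsdhl kept its call in all 18 fits (adjusted p up to 0.0363). Fdft1 was lost without replicates 1 or 2 of the 300 culture or replicate 3 of the 600 challenge or replicate 1 of the 900 challenge (adjusted p up to 0.0574). The dimmer Insig1 feature was lost without replicates 1 or 2 of the 300 culture or replicate 3 of the 600 challenge or replicates 2 or 3 of the 600 culture or replicates 1, 2 or 3 of the 900 challenge or replicate 3 of the 900 challenge with cyclosporin A (adjusted p up to 0.0963), and Npc1 without each of 10 of the 18 arrays in turn, and passed without replicate 1 of the 300 culture or replicate 1 of the 600 challenge or replicate 1 of the 600 challenge with cyclosporin A or replicate 2 of the 600 challenge with cyclosporin A or replicate 3 of the 600 challenge with cyclosporin A or replicate 1 of the 900 challenge with cyclosporin A or replicate 2 of the 900 challenge with cyclosporin A or replicate 3 of the 900 challenge with cyclosporin A (adjusted p up to 0.0882).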

How the results depend on the processing

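Of 114 gene and comparison values that passed, 55 passed under every alternative, and of 205 that did not, 174 passed under none; 0 changed sign among the values that passed. Fits of only the groups compared called 5 members for the step to 600 (12), 7 for it with the drug (13), 5 for the step to 900 (10), 0 and 0 for the drug at the 600 and 900 challenges (7 and 10), and 6 for the 600 challenge against the 600 culture (14). An intensity trend gave 6 members whose step differed (3). With single arrays left out, the count was 7 to 13 for the step to 600, 10 to 13 with the drug, 7 to 12 for the step to 900, 15 to 17 with the drug, 2 to 7 and 6 to 9 for the drug at the 600 and 900 challenges, 12 to 13 for its mean effect, 7 to 12 between the cultures, 12 to 14 for the 600 challenge against the 600 culture and 1 to 3 for the step difference; the drug difference stayed at 0. Over all features the drug calls at the 600 challenge (116) became 0 with only the groups compared, 182 without dim features, 272 with the trend and 39 to 112 with single arrays left out. At the 900 challenge (143) they were 0, 233, 383 and 43 to 146, for the mean effect (322) 123, 490, 677 and 180 to 310, and for the drug difference (13) 5, 28, 37 and 4 to 17. With only the groups compared, all-feature counts were also 2479 for the step to 600 with the drug, 2860 and 3059 for the step to 900 without and with it, and 3071 for the 600 challenge against the 600 culture. Fewer arrays enter such fits. Same-numbered arrays did not deviate together (correlations of -0.129 to 0.108 over 45 pairs; 5 of 18 arrays correlated best with their own number), so the numbers were not taken to pair the samples. The numbers are those of the titles, and the third arrays of both 900 groups carry another number in their source name. The replicate block gave 6, 9 and 12 members for the drug at the 600 challenge, the 900 challenge and in the mean effect. In the last 150 bases of the promoter windows 13 members held CCAAT (56.5%, against 22.4% of promoters on the array), 11 the GC box (47.8% against 39.1%) and 2 the E-box (8.70% against 4.64%). The number of arrays limits the precision, and signal over background is not given.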
